A study of Bos taurus with 12 samples.

Results

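The genes described here are the steroid hormone receptors and their coregulators on the bovine expression array: the estrogen receptors ESR1 and ESR2, the progesterone receptor PGR, the glucocorticoid receptor NR3C1, the membrane components PGRMC1 and PGRMC2, the estrogen-related receptor ESRRA, the corepressor NCOR1 and the coactivator NCOA3. Members were the probe sets to which the platform annotation gives exactly 1 of these symbols. The annotation gave 12 such probe sets, of 24016 in all, for 6 of the 9 genes, where the whole array has 9155 named genes: 5 for NCOR1, 2 each for NR3C1 and PGRMC1, and 1 each for ESR1, ESR2 and PGR. PGRMC2, ESRRA and NCOA3 had none. A further 5 probe sets carry the names PGR, ESRRA or NCOA3 only in the supplementary tables of the study and are described apart.

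Each of the 12 arrays was hybridised with RNA pooled from 5 cytobrush biopsies of endometrium, taken from cyclic, estrus-synchronised Simmental heifers before an embryo was transferred. The groups were HR7 and LR7, sampled on day 7 of the estrous cycle, and HR3 and LR3, sampled on day 3, with 3 pools in each. HR heifers carried an embryo after a blastocyst produced in vitro was transferred in the following cycle, and LR heifers did not, so receptivity was assigned after the biopsies were taken and from another cycle. The sample records call the 2 classes receptive and non receptive. The spread between pools is smaller than that between heifers, and p-values measure the spread between these pools only. The paper calls the study longitudinal, so day 3 and day 7 pools may hold the same heifers. The main fit treats all pools as independent.

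Steroid receptors are transcription factors that bind their hormone, enter or stay in the nucleus and act on genes together with coactivators, which open chromatin, or corepressors, which recruit histone deacetylases. In the uterus, estrogen from the follicle induces both ESR1 and PGR, and progesterone from the corpus luteum, which forms after ovulation, later lowers PGR in the epithelium. In cattle the corpus luteum grows from day 3 to day 7 and progesterone in the blood increases.

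The deposited values are log2 signals, and the 12 array medians ran from 6.64 to 6.77. Epithelial markers were bright, as EPCAM averaged a log2 signal of 12.98, CDH1 12.19, KRT19 12.52 and KRT18 11.49, whereas the probe set of KRT8 averaged 6.31. The summed signals of markers of some other cell types differed with the day or the group, though the ranges of some groups overlapped. For 3 red blood cell markers the summed linear signals overlapped in all groups, at 113 to 127 in HR7, 111 to 128 in LR7, 115 to 139 in HR3 and 105 to 125 in LR3. In pooled tissue such sums do not tell the number of cells from the RNA per cell. The summed linear signal of 13 stromal markers was 4410 to 16300 in HR7, 4670 to 10700 in LR7, 13100 to 17500 in HR3 and 6510 to 14000 in LR3. That of 7 T and NK cell markers was 665 to 1020 in HR7, 638 to 1170 in LR7, 1190 to 1380 in HR3 and 1160 to 1660 in LR3. The 3 neutrophil markers with a probe set summed to 6630 to 12700 in HR7, 3520 to 5810 in LR7, 308 to 445 in HR3 and 446 to 945 in LR3, and the 5 squamous markers with one to 2680 to 4230 in HR7, 525 to 667 in LR7, 303 to 431 in HR3 and 246 to 453 in LR3. No marker with a probe set stood at the floor of 0 on any array. For the spiked dap transcript, which controls the target preparation, 5' minus 3' signal on the log2 scale was between -2.36 and -1.54 in HR7, between -1.76 and -1.28 in LR7, between -2.64 and -1.37 in HR3 and between -2.83 and -2.42 in LR3, so LR7 and LR3 did not overlap in it. The spiked thr transcript also separated LR7, at -2.51 to -2.02, and LR3, at -3.42 to -3.13. Of the cell's own transcripts, gapd overlapped between LR7 and LR3, at -0.86 to -0.44 and -0.92 to -0.65, and actin ran the other way, at -1.53 to -0.62 in LR7 and -0.62 to 0.55 in LR3. Only dap was used as a covariate. Because LR7 and LR3 do not overlap in dap, that fit can hardly separate dap from the day in LR, for any probe set.

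Testing was limited to probe sets that varied by a standard deviation of 0.2 or more across arrays and that exceeded the array median in all 3 pools of some group. Of the 12 member probe sets 3 passed: NR3C1 Bt.9399.1.S1_at, NCOR1 Bt.25965.2.S1_at and PGRMC1 Bt.22290.1.S1_at. Another 6 were left out because they were too dim and 3 because they varied too little. Differences are those of limma on the log2 scale, with p-values adjusted by the Benjamini-Hochberg method over all 7336 tested probe sets, or, for the 9 probe sets left out, over all 24016 in a second fit. A change was called at an adjusted p under 0.05. The plot of the 12 probe sets by pool shows every value.

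**Figure D1:**
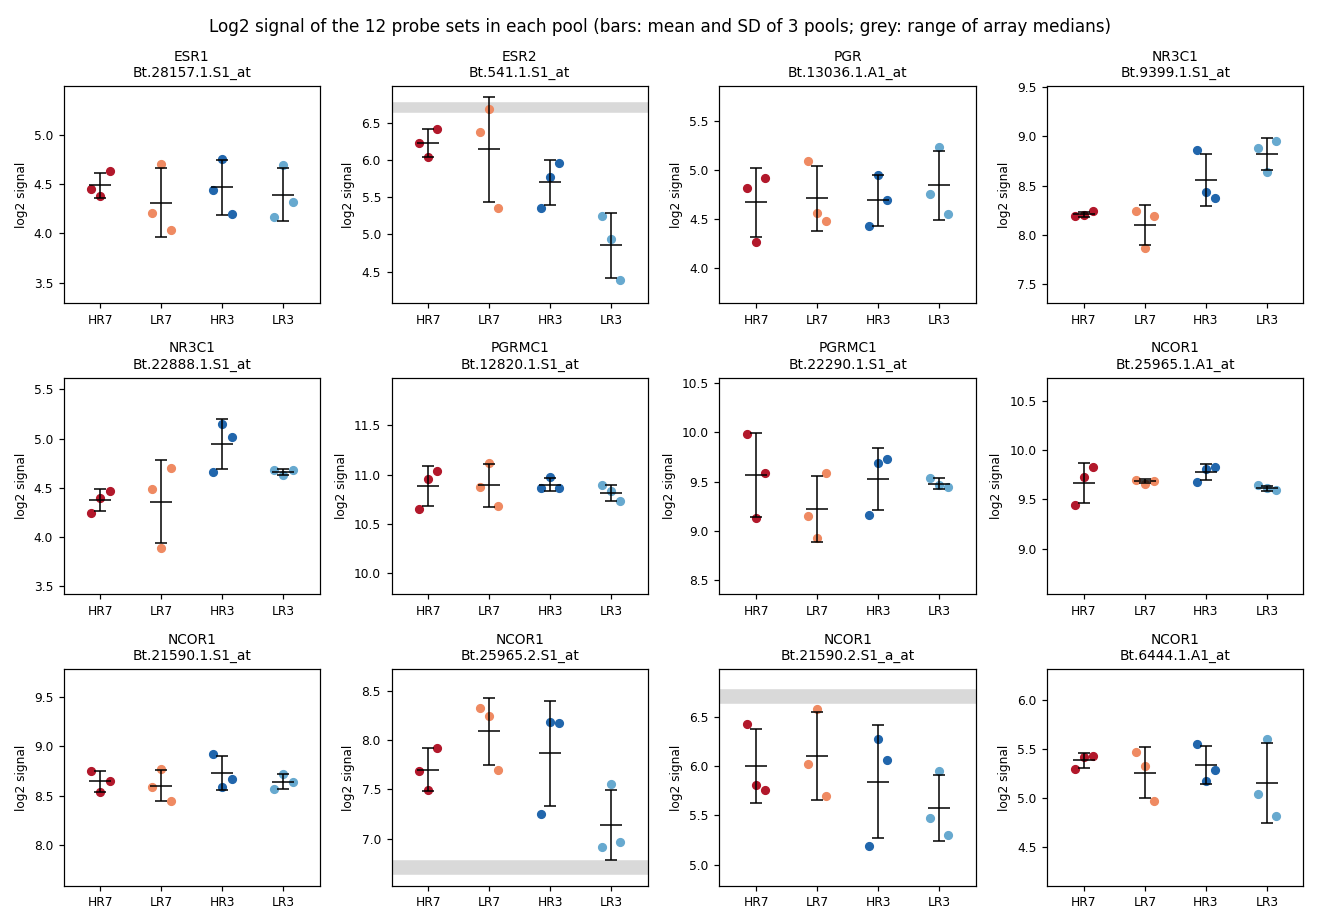
Log2 signal of the 12 member probe sets in each pool of HR7, LR7, HR3 and LR3. Points are pools, the bars give the mean and SD of 3 pools, and the grey band is the range of the array medians. NR3C1 Bt.9399.1.S1_at lies lower on day 7 than on day 3 in every pool, and ESR2 has its 3 lowest values in LR3. The 5 NCOR1 probe sets differ in level and in how far their groups lie apart.

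ESR1 and ESR2 bind estradiol. ESR1 is the main estrogen receptor of the uterus. The log2 signals of its only probe set, Bt.28157.1.S1_at, were 4.45, 4.38 and 4.63 in HR7, 4.21, 4.70 and 4.03 in LR7, 4.44, 4.76 and 4.20 in HR3 and 4.17, 4.69 and 4.32 in LR3. All 4 groups overlapped, and the probe set stayed below the array median on all 12 arrays, at a mean percentile of 18.5. The group means were 4.49 ± 0.13 in HR7, 4.31 ± 0.35 in LR7, 4.47 ± 0.28 in HR3 and 4.39 ± 0.27 in LR3 (SD, n = 3 pools each). Whether the array detected the ESR1 transcript at this signal was not tested.

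ESR2 had a different pattern, with low values in LR3. Its probe set Bt.541.1.S1_at had log2 signals of 6.22, 6.04 and 6.42 in HR7, 6.38, 6.69 and 5.35 in LR7, 5.36, 5.77 and 5.96 in HR3 and 5.24, 4.94 and 4.38 in LR3. The HR7 pools all lay above the HR3 pools, the LR7 pools all above the LR3 pools and the HR3 pools all above the LR3 pools, whereas HR7 and LR7 overlapped. The order of the means was HR7 at 6.23 ± 0.19, LR7 at 6.14 ± 0.70, HR3 at 5.70 ± 0.31 and LR3 at 4.85 ± 0.44 (SD, n = 3 pools each). Only 1 array, LR7 pool 2, placed it above its median, and its mean percentile was 36.1. Whether the array detected the ESR2 transcript at this signal was not tested. ESR2 did not pass the filter, and the fit over all probe sets was added after that was seen. In the fit over all probe sets ESR2 rose on day 7, by 0.91 ± 0.24 (SE) over both receptivity groups (limma adjusted p = 0.0198) and by 1.29 ± 0.34 in LR (adjusted p = 0.0376). The difference in HR was 0.53 ± 0.34 (adjusted p = 0.356), and the interaction of receptivity and day was -0.76, with a 95% interval from -1.82 to 0.31.

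Both calls on ESR2 were lost with the dap control as a covariate. With it the difference was 0.65 over both groups (adjusted p = 0.155) and 0.74 in LR (adjusted p = 0.535). The call over both groups held in all 12 fits that left out 1 pool (adjusted p from 0.00309 to 0.0489), whereas the LR call was lost in 9 of them, with adjusted p values of up to 0.12. The LR call was also lost with the pool number as a replicate block over all groups (adjusted p = 0.0596), but not with the replicate block within receptivity group (adjusted p = 0.027).

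PGR is the nuclear receptor through which progesterone acts on the endometrium. The platform-named probe set, Bt.13036.1.A1_at, was dim, with log2 signals of 4.82, 4.27 and 4.92 in HR7, 5.09, 4.56 and 4.48 in LR7, 4.43, 4.95 and 4.69 in HR3 and 4.75, 5.23 and 4.55 in LR3. The groups overlapped, and no array had it above its median. Its mean percentile was 22.2, and the difference of day 7 minus day 3 over both groups was -0.08, with a 95% interval from -0.47 to 0.32.

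Both of the bright probe sets that the study's tables name PGR lie outside the annotation rule, and the study chose them on these arrays, so they are described without a test. Bt.13993.2.S1_at had log2 signals of 9.91, 9.97 and 9.91 in HR7, 11.21, 10.00 and 10.83 in LR7, 10.92, 11.04 and 10.48 in HR3 and 11.22, 11.33 and 10.92 in LR3. All HR7 pools lay below every other pool. LR7 pool 2, at 10.00, lay next to them, and the other 2 LR7 pools lay within the range of the day 3 pools. Bt.13993.1.A1_at had 9.59, 9.61 and 9.57 in HR7, 10.67, 9.58 and 10.45 in LR7, 9.96, 10.78 and 10.45 in HR3 and 10.48, 10.68 and 9.99 in LR3. Here too the HR7 pools were close together and LR7 pool 2 was level with them. The difference of HR7 minus HR3 was -0.88 ± 0.26 (SE) for the first and -0.81 ± 0.28 for the second. That of LR7 minus LR3 was -0.48 ± 0.26 and -0.15 ± 0.28, and that of HR7 minus LR7 was -0.75 ± 0.26 and -0.64 ± 0.28. Stromal markers moved in the same direction with the day in HR, where 9 of 10 tested markers were lower in HR7 (median difference -1.32). Of the 10, 3 fell, against 1525 of all 7336 tested probe sets. In HR7 minus LR7, where both PGR probe sets were also lower, the stromal median was -0.09, with 6 of 10 markers lower. The 2 ciliated markers with a probe set, TEKT1 and TPPP3, summed to 207 to 501 in HR7, 431 to 779 in LR7, 598 to 1200 in HR3 and 596 to 914 in LR3, and both fell in HR7 minus HR3 (median -1.49). Their median was -0.92 in HR7 minus LR7, where neither passed. Squamous markers were highest in HR7. The part of these cell types in the PGR values was not tested, and in pooled tissue fewer cells of a type and less RNA per cell cannot be told apart.

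**Figure D2:**
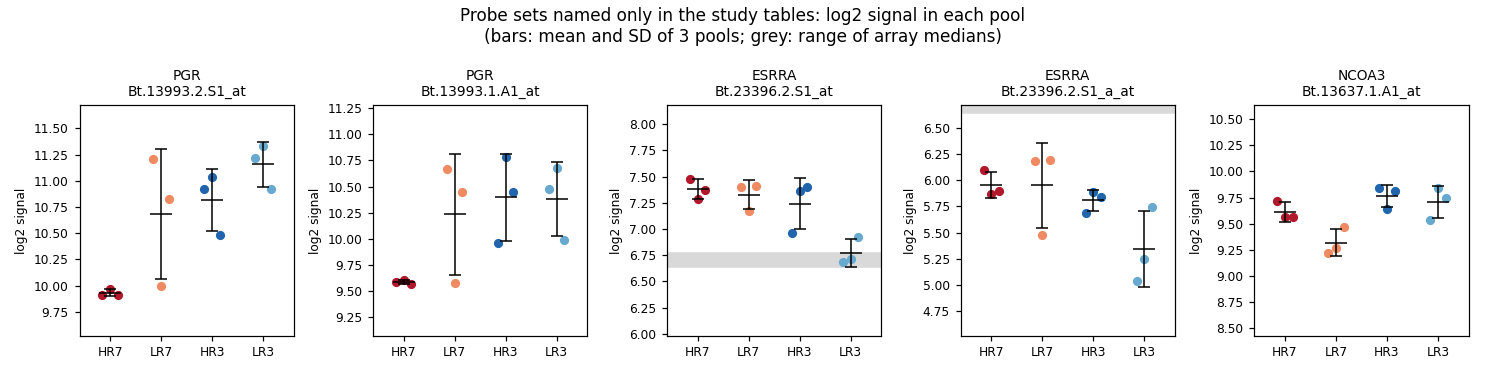
Log2 signal in each pool of the 5 probe sets named PGR, ESRRA or NCOA3 only in the supplementary tables of the study, for HR7, LR7, HR3 and LR3. Points are pools, the bars give the mean and SD of 3 pools, and the grey band is the range of the array medians. For both PGR probe sets the 3 HR7 pools and LR7 pool 2 are low, and for both ESRRA probe sets LR3 has the lowest mean.

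PGRMC1 is a heme-binding membrane protein linked to rapid effects of progesterone. Neither of its probe sets passed in any comparison. Bt.12820.1.S1_at was bright and even, with log2 signals of 10.65, 10.96 and 11.04 in HR7, 10.87, 11.12 and 10.68 in LR7, 10.86, 10.98 and 10.86 in HR3 and 10.89, 10.83 and 10.73 in LR3. Its standard deviation over the 12 arrays was 0.141, and for HR7 minus LR7 the 95% interval ran from -0.32 to 0.31. Bt.22290.1.S1_at had 9.98, 9.13 and 9.59 in HR7, 9.15, 8.93 and 9.59 in LR7, 9.16, 9.69 and 9.73 in HR3 and 9.54, 9.46 and 9.44 in LR3. The 3 HR7 pools spanned most of the range of all pools. In HR7 minus LR7 its difference of 0.34 had a 95% interval from -0.17 to 0.85, and over the 2 days together HR minus LR was 0.20, with an interval from -0.17 to 0.56.

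NR3C1, the receptor for cortisol, fell on day 7. The log2 signals of Bt.9399.1.S1_at were 8.19, 8.20 and 8.24 in HR7, 8.24, 7.87 and 8.19 in LR7, 8.86, 8.44 and 8.37 in HR3 and 8.88, 8.64 and 8.95 in LR3. All 6 day 7 pools lay below all 6 day 3 pools, and within a day HR and LR overlapped. The means were 8.21 ± 0.03 in HR7, 8.10 ± 0.20 in LR7, 8.56 ± 0.27 in HR3 and 8.82 ± 0.16 in LR3 (SD, n = 3 pools each). Over both groups the difference was -0.54 ± 0.11 (SE), with a 95% interval from -0.78 to -0.29 (limma adjusted p = 0.0019). It was -0.72 ± 0.16 in LR (adjusted p = 0.00534) and -0.35 ± 0.16 in HR (adjusted p = 0.098), and the interaction was 0.38, with a 95% interval from -0.12 to 0.87. The call over both groups held in all 12 fits without 1 pool and in all 12 other settings. With the dap control as a covariate the difference in LR was -0.38 (adjusted p = 0.249). Stromal and T and NK cell markers were also lower on day 7 (median differences -0.89 and -0.63). Of the tested markers 4 of 10 and 6 of 7 fell, against 34.8% of all tested probe sets, so the stromal count is near that share. The part of either cell type in the NR3C1 values was not tested.

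The other NR3C1 probe set, Bt.22888.1.S1_at, was dim. Its log2 signals were 4.25, 4.40 and 4.47 in HR7, 4.49, 3.89 and 4.70 in LR7, 4.66, 5.15 and 5.02 in HR3 and 4.68, 4.63 and 4.68 in LR3. The HR7 pools lay below the HR3 pools, while LR7 and LR3 overlapped. The day difference over both groups was -0.44 ± 0.14 (SE; adjusted p = 0.0452 in the fit over all probe sets), and it lay on the other side of the threshold in 10 of the 12 fits without 1 pool, with adjusted p values of up to 0.0989, and in 6 of 9 other settings, among them the replicate block (adjusted p = 0.0608).

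NCOR1 is a corepressor that holds histone deacetylase complexes on nuclear receptors. Its 5 probe sets differed in brightness and in the size of their differences between groups. Bt.25965.2.S1_at had log2 signals of 7.69, 7.49 and 7.92 in HR7, 8.33, 8.24 and 7.70 in LR7, 7.25, 8.18 and 8.17 in HR3 and 6.91, 7.55 and 6.96 in LR3. All LR7 pools lay above all LR3 pools, HR7 overlapped with LR7 and with HR3, and HR3 pool 1 lay below the highest LR3 pool. The means were 7.70 ± 0.22 in HR7, 8.09 ± 0.34 in LR7, 7.87 ± 0.53 in HR3 and 7.14 ± 0.36 in LR3 (SD, n = 3 pools each). In LR the signal rose by 0.95 ± 0.27 (SE) on day 7 (adjusted p = 0.0164), whereas HR7 minus HR3 was -0.17 ± 0.27. The interaction of -1.12 ± 0.39 had an unadjusted p of 0.0133 and an adjusted p of 1. HR3 minus LR3 was 0.73 ± 0.27, with an unadjusted p of 0.0204 and an adjusted p of 0.67.

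The NCOR1 call did not hold in every setting. HR3 pool 1 and the LR3 pools, with dap differences of -2.64 and of -2.83, -2.42 and -2.59, the 4 lowest of all arrays, had 4 of the 5 lowest signals of this probe set. With dap as a covariate the difference in LR was 0.15 (adjusted p = 0.728) and HR3 minus LR3 was 0.18. LR7 and LR3 do not overlap in dap, so that fit can hardly separate dap from the day in LR. The part of dap in the NCOR1 values was not tested. The LR call was also lost without LR7 pool 1 (0.83, adjusted p = 0.0627), without LR7 pool 2 (0.88, adjusted p = 0.0502) and without LR3 pool 1 (0.84, adjusted p = 0.0567), and in the fit over all probe sets (adjusted p = 0.0602).

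The other NCOR1 probe sets passed in no comparison. Bt.25965.1.A1_at lay between 9.44 and 9.83 and Bt.21590.1.S1_at between 8.45 and 8.92 on the 12 arrays, and both had a standard deviation under 0.2. For LR7 minus LR3 the 95% interval was -0.18 to 0.32 for the first and -0.32 to 0.24 for the second, and neither interval holds the 0.95 of Bt.25965.2.S1_at. Bt.21590.2.S1_a_at, with 6.43, 5.81 and 5.76 in HR7, 6.02, 6.58 and 5.70 in LR7, 5.19, 6.28 and 6.06 in HR3 and 5.47, 5.95 and 5.30 in LR3, and Bt.6444.1.A1_at, between 4.82 and 5.60, were below the array median on every array. LR7 minus LR3 was 0.53 for Bt.21590.2.S1_a_at, with a 95% interval from -0.22 to 1.27, which holds 0.95. It was 0.10 for Bt.6444.1.A1_at, with an interval from -0.35 to 0.56. For Bt.25965.1.A1_at all LR7 pools and all HR3 pools lay above the LR3 pools. HR3 minus LR3 was positive and the interaction negative for every NCOR1 probe set. Which NCOR1 transcripts the probe sets measure was not tested.

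ESRRA, an orphan receptor that controls genes of mitochondrial metabolism, and NCOA3, a coactivator of the p160 family, have array values only through the study's tables. ESRRA Bt.23396.2.S1_at had log2 signals of 7.48, 7.29 and 7.37 in HR7, 7.40, 7.17 and 7.41 in LR7, 6.96, 7.36 and 7.40 in HR3 and 6.68, 6.71 and 6.92 in LR3. The LR3 pools were the 3 lowest and HR3 pool 1 the next, and these are the 4 arrays with the lowest dap difference, whose part in the ESRRA values was not tested. The difference was 0.47 ± 0.15 (SE) for HR3 minus LR3, 0.56 ± 0.15 for LR7 minus LR3 and 0.14 ± 0.15 for HR7 minus HR3. The dimmer Bt.23396.2.S1_a_at gave 0.46 ± 0.22, 0.61 ± 0.22 and 0.15 ± 0.22 in the same comparisons. NCOA3 Bt.13637.1.A1_at had 9.72, 9.56 and 9.56 in HR7, 9.22, 9.27 and 9.47 in LR7, 9.84, 9.64 and 9.81 in HR3 and 9.54, 9.84 and 9.75 in LR3. The LR7 pools were the 3 lowest, with a difference of 0.29 ± 0.13 for HR7 minus LR7 and of -0.39 ± 0.13 for LR7 minus LR3. As the study picked them from the same arrays, no p-value is given for them.

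Set side by side, the comparisons with the day gave the following counts. In LR7 minus LR3, 2 of the 3 tested member probe sets passed, 1 that rose and 1 that fell, against 44.7% of all tested probe sets. Over both receptivity groups 1 of 3 fell, against 65.9%. In HR7 minus HR3 limma called 0 of 3, against 41.5%, and 0 of 3 also had an unadjusted p under 0.05, with the ordinary linear model as well, where 53.1% of all tested probe sets had one in limma. In the fit over all probe sets 2 of the 12 passed in LR, ESR2 and NR3C1 Bt.9399.1.S1_at, against 11.4%, 3 of the 12 over both groups, against 26.5%, and 0 of the 12 in HR, against 11.2%, where limma and the ordinary linear model each gave 1 unadjusted p under 0.05 and 27.2% of all probe sets had one in limma. The shares in both fits were read against a background in which a large part of the array changed with the day.

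**Figure D3:**
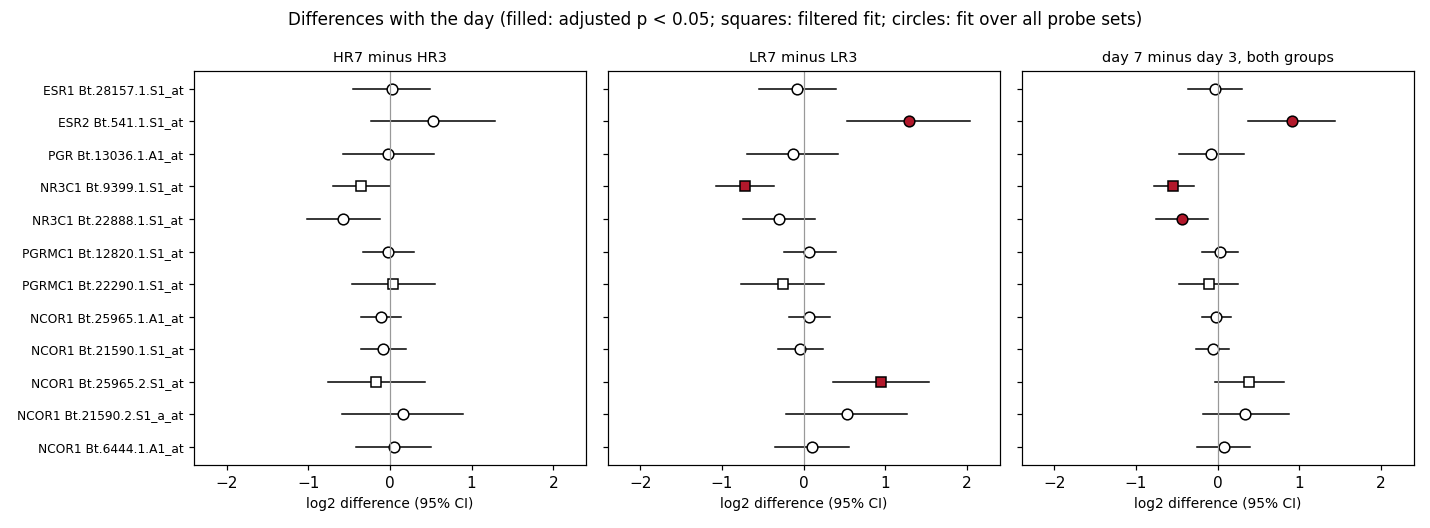
Log2 differences with 95% confidence intervals of the 12 member probe sets for HR7 minus HR3, LR7 minus LR3 and day 7 minus day 3 over both receptivity groups. Squares come from the fit over the tested probe sets and circles from that over all probe sets, and filled symbols have an adjusted p under 0.05. NR3C1 is filled on the negative side, ESR2 and, in LR, NCOR1 Bt.25965.2.S1_at on the positive side, and no symbol is filled for HR7 minus HR3.

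The comparison of HR with LR asked whether endometria of heifers that later became pregnant differed before transfer. No member passed. On day 7 limma called 0 of 3 tested member probe sets, against 0.0682% of all tested ones, and 0 of 12 in the fit over all probe sets, against 0.00833%, and none had an unadjusted p under 0.05 in limma or the ordinary linear model, where limma gave one to 4.51% of the tested and 3.82% of all probe sets. On day 3 it called 0 of 3, against 0.0%, where 1 had an unadjusted p under 0.05 with each tool, and 0 of 12, against 0.00416%, where 2 had one in limma, ESR2 and NCOR1 Bt.25965.2.S1_at, and 1 in the ordinary linear model. At that threshold limma had 7.03% of the tested and 6.8% of all probe sets. Over both days it called 0 of 3, against 0.0409%, and 0 of 12, against 0.00416%, with no unadjusted p under 0.05 by either tool, which limma gave to 7.02% of the tested and 6.16% of all probe sets. For the interaction it called 0 of 3, against 0.0%, and 0 of 12, against 0.00416%, with 1 unadjusted p under 0.05 by each tool, which limma gave to 3.90% and 4.04%. The differences of the 12 probe sets ran from -0.39 to 0.34 on day 7 and from -0.27 to 0.84 on day 3. The 95% interval of ESR2 on day 3 reached from 0.09 to 1.60, so 3 pools a group leave room for differences of this size, and a p that misses the threshold does not show that HR and LR were alike. Each group enters 3 of these 4 comparisons, so the values of 1 group move all 3.

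**Figure D4:**
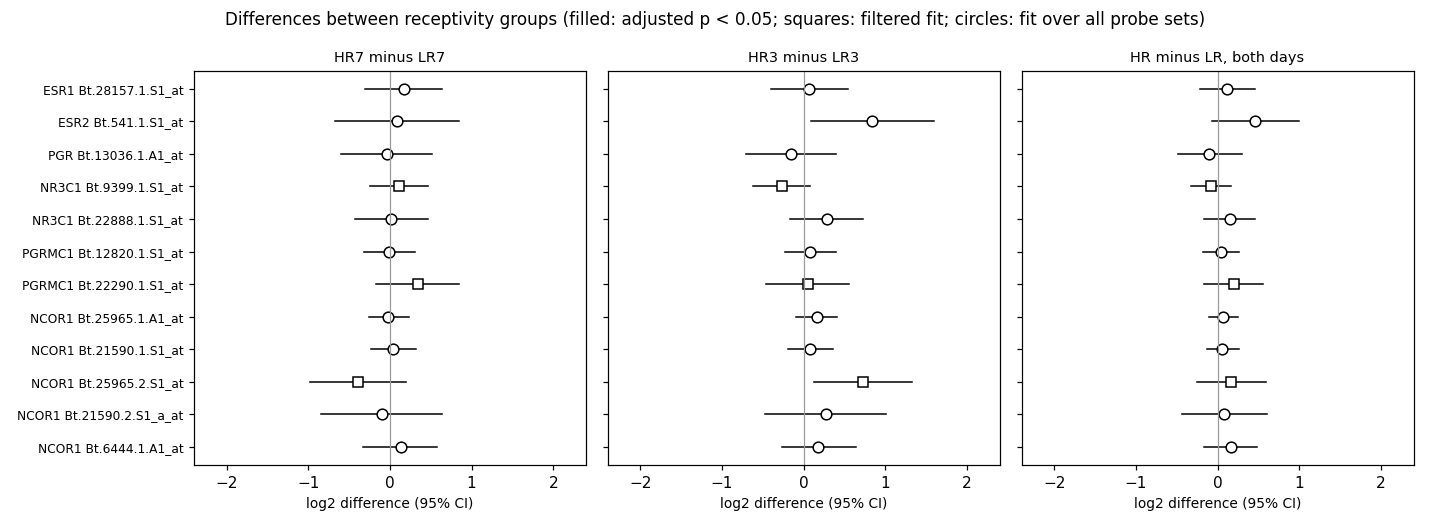
Log2 differences with 95% confidence intervals of the 12 member probe sets for HR7 minus LR7, HR3 minus LR3 and HR minus LR over both days. Squares come from the fit over the tested probe sets and circles from that over all probe sets. No symbol is filled, as none has an adjusted p under 0.05, and ESR2 and NCOR1 Bt.25965.2.S1_at lie farthest to the right for HR3 minus LR3.

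As a description, the probe sets of other genes that ran most like a member over the 12 arrays were found by Pearson's r of log2 values. For NR3C1 Bt.9399.1.S1_at they were KLF10 (r = 0.957), FRA10AC1 (r = 0.952) and DYNC1I2 (r = 0.947). For ESR2 they were MAP2K1 (r = 0.934), ALS2CL (r = 0.933) and ABLIM1 (r = 0.932). The arrays share their 4 groups and the day effect. After the 4 group means were taken out, the 3 most alike were HNRNPUL1, RNF39 and SPSB1 for NR3C1 (r = 0.960, 0.916 and 0.908) and TM7SF2, RBBP8 and CSNK1A1 for ESR2 (r = 0.926, 0.901 and 0.897), so none of the first genes stayed among the 3 most alike.

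The other genes of steroid signalling were taken from 9 lists with 227 different genes, of which 149 had a probe set and 66 were tested. The lists were written with earlier results of these data known. Their counts and medians are therefore a description of the listed genes and no test of a class. Over both receptivity groups 48 of the 66 passed for day 7 minus day 3, where 65.9% of all tested probe sets did, 31.1% that rose and 34.8% that fell, and the median of all tested was -0.08. The filter itself favoured a rise for 6 of the 66 genes, which exceeded the array medians only in day 7 groups, so counts and medians are also given without them. Of the other 60, 26 rose and 17 fell, with a median of 0.2. Of 28 listed enzymes of steroid metabolism 18 had a probe set and 8 were tested. All 8 tested enzymes rose, with a median of 1.05, and without STAR, which passed the filter only through day 7, 7 of 7 rose, with a median of 0.91. SULT1A1, a sulfotransferase of phenols and estrogens, rose by 2.24, HSD11B2, which turns cortisol into inactive cortisone, by 1.44, and HSD17B4, a peroxisomal enzyme that also oxidises estradiol, by 1.20. STAR, which carries cholesterol into mitochondria, averaged 7.19 on day 7 and 5.92 on day 3. HSD11B2 averaged a log2 signal of 8.94 on day 7 and 7.50 on day 3. For every gene named by the rule from these lists the day 7 and day 3 pools do not overlap, as this was a condition for naming it.

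Of 28 listed genes known to respond to progesterone in the endometrium 18 had a probe set and 9 were tested. Of the 9 tested 7 rose and none fell, with a median of 2.59, against 31.1% and 34.8% of all tested probe sets. Of these, 3 passed the filter only through day 7, and without them 4 of 6 rose, with a median of 1.57. FABP3, a carrier of fatty acids, rose by 4.04. It passed the filter through both days, but its day 3 mean of 6.45 lay below the array medians, so this size is uncertain. The other 3 genes named by the rule are those carried by day 7, and their day 3 signals lay below the array medians, so the size of their change is uncertain. DGAT2, which makes triglycerides, averaged 8.26 on day 7 and 3.27 on day 3, LPL, the lipoprotein lipase, 9.04 and 5.35, and SLC5A1, a sodium-dependent glucose transporter, 8.38 and 5.48. Estrogen-responsive genes went both ways, with 2 of 8 that rose and 4 that fell and a median of -0.68. Without PDZK1, which passed the filter only through day 7, 1 of 7 rose and 4 fell, with a median of -0.77. OXTR, the oxytocin receptor, fell by 1.65, and MYC, a transcription factor of growth, by 0.59. PDZK1, a scaffold protein of membrane transporters, averaged 11.78 on day 7 and 6.03 on day 3, below the array medians.

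Of the receptors outside the member list 2 of 9 tested rose and 4 fell. For these receptors, the coactivators, the corepressors and the chaperones the lists are short, and their counts, read against the 65.9% of all tested probe sets that passed, are no result about these classes. RARA, a retinoic acid receptor that is also on the list of estrogen-responsive genes, fell by 0.77, NENF, a secreted relative of PGRMC1, by 0.65 and HNF4A, a receptor of epithelial and liver genes, by 0.50. Of 4 coactivators tested 1 rose and 2 fell. UBE3A, a ubiquitin ligase, rose by 0.61, PNRC1 fell by 0.44 and PRMT1, an arginine methyltransferase, by 0.42. Of 5 corepressors tested 1 rose and 3 fell. Without MTA2, which passed the filter only through day 7, 1 of 4 rose and 3 fell, with a median of -0.42. TBL1X, a subunit of the NCOR1 complex, fell by 0.74, the deacetylase HDAC2 by 0.49 and CCAR2 by 0.36, and CORO2A, also a subunit of the NCOR1 complex, rose by 0.72. Of the chaperones that hold steroid receptors ready for their hormone 2 of 5 tested fell and none rose, with a median of 0.12.

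Targets of the glucocorticoid receptor did not move 1 way. Of 8 tested, 1 rose, 2 fell and 5 did not pass, with a median of 0.05, so fewer passed than the 65.9% of all tested probe sets, over a list too short to compare. Of the 11 tested targets of ESRRA and its coactivator PGC-1, 9 rose and 1 fell, with a median of 0.37, where 31.1% of all tested probe sets rose and 34.8% fell. No test of the list was made. PDK4 was the 1 that fell, with a difference of -0.82, the largest change of the list, and its day 7 and day 3 pools overlapped. ACADM, an enzyme of fatty acid oxidation, rose by 0.51, the citrate synthase CS by 0.44, SDHB of respiratory complex II by 0.43 and COX5B of complex IV by 0.37. The plot of the lists shows each tested gene.

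**Figure D5:**
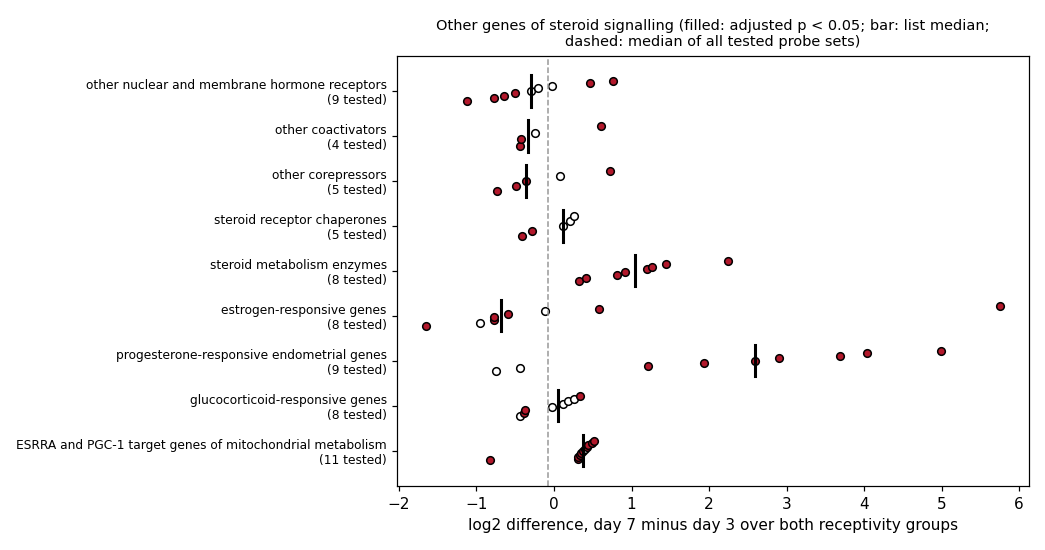
Log2 difference of day 7 minus day 3 over both receptivity groups for the tested genes of 9 lists of steroid signalling, 1 point a gene. Filled points have an adjusted p under 0.05, black bars are list medians, and the dashed line is the median of all tested probe sets, at -0.08. All 8 steroid enzymes lie to the right of 0, 7 of 9 progesterone-responsive genes lie to the right of 1, of which 3 passed the filter only through day 7, and glucocorticoid-responsive genes lie on both sides of 0.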

How the data were processed

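The authors scanned 12 GeneChip Bovine Genome Arrays in GCOS 1.1.1 with global scaling and computed signals with PLIER in Affymetrix Expression Console. The deposited log2 values were used as given. Of 24128 entries 112 are control probe sets. The platform annotation gives 13292 of the other 24016 probe sets 1 symbol, 86 several and 10638 none. The present calls of the study were not used here, and the condition on the array median stands in for them. It left 12274 probe sets, the standard deviation 18101 and both 7336. The genes described and all lists were chosen with earlier results of these data known.

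Group means were fitted over all 12 arrays in limma 3.58.1 (R 4.3.3), with 1 mean per group and no covariate. The fit over all 24016 probe sets was added after the filter was seen to leave out 9 member probe sets. The script was tested on simulated data. Tables were made with pandas 2.3.3 and numpy 2.4.6 under Python 3.11.15. Every member probe set is named. Of each list up to 4 genes in each direction were named, those with the largest change among the genes that passed and whose day 7 and day 3 pools do not overlap. PDK4 is named outside this rule. A gene with several probe sets was represented by the brightest. The number of arrays limits the precision.

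Pool numbers recur in every group. The residuals of same-numbered pools correlated by 0.199, 0.211 and 0.463 between LR7 and LR3 and by 0.135, 0.148 and 0.445 between HR7 and LR7, but by 0.118, 0.002 and -0.061 between HR7 and HR3 and by -0.082, -0.030 and -0.470 between HR3 and LR3. By the rule that every pair must exceed 0.1 the numbers pair the first 2 sets, although HR7 pool 2 correlated more with another LR7 pool. The source of this pairing is not given in the sources used here. Alternatives were other filters, quantile normalization, median centring, an ordinary linear model, array weights, only the compared groups, a replicate block over all groups or, added later, within receptivity group, 16 added to the linear signal, dap as a covariate, the mean over probe sets and leaving out each pool.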

Additional observations from a re-analysis of the deposited data

How the results depend on the processing

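The count of tested member probe sets that passed in LR7 minus LR3, 2, was 0 with dap as a covariate and ran from 1 to 2 when 1 pool was left out (1 without LR7 pool 1, LR7 pool 2 or LR3 pool 1). The share of all tested probe sets that passed with dap as a covariate is not given here. The count of 0 is therefore no result about the members. In LR7 minus LR3 the count was also 2 with no filter at all, but there ESR2 took the place of NCOR1 Bt.25965.2.S1_at. The count over both receptivity groups, 1, was 3 with no filter at all and 3 with no condition on the array median, where ESR2 and the dim NR3C1 probe set entered, and ran from 1 to 2 when 1 pool was left out (2 without LR7 pool 3 or LR3 pool 2). With the replicate block the counts were 2 in LR7 minus LR3 and 1 over both groups, and the block changed only the calls on ESR2 and Bt.22888.1.S1_at given above. ESR2 in LR also missed the threshold with the ordinary linear model (adjusted p = 0.0629) and with only the groups compared (adjusted p = 0.132), and NCOR1 Bt.25965.2.S1_at in LR with no condition on the array median (adjusted p = 0.0569). NR3C1 Bt.22888.1.S1_at over both groups missed it with dap as a covariate (adjusted p = 0.0915), the ordinary linear model (0.0613), median centring (0.0537), the replicate block within receptivity group (0.0516) and 16 added to the signal (0.0503). NR3C1 Bt.22888.1.S1_at in HR7 minus HR3 passed with array weights (adjusted p = 0.0200) and without LR7 pool 2 (adjusted p = 0.0356). No direction was reversed. Of the other list genes 48 passed with the brightest probe set and 41 with the mean over probe sets, 39 of them in both. Dim probe sets, among them ESR1 and the platform-named PGR, limit what these arrays can show. The cause of these shifts was not tested.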
